A study of Mus musculus with 11 samples.

Results

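Ifit1, Ifit2, Ifit3, Isg15, Usp18, Rsad2, Cmpk2, Herc6 and Isg20 are 9 mouse genes of the early interferon response. They were taken by symbol from the 55487 genes of a bulk RNA sequencing count table, and all 9 were among the 14521 genes that passed the filter on low counts. The 11 libraries came from acute myeloid leukaemia (AML) of mice that carry Flt3-ITD, an activating internal duplication in the receptor gene Flt3, and NHD13, a transgene that fuses NUP98 and HOXD13. Per the labels, both alleles were present in every library. Of these, 6 were labelled Ifnar1 +/- and 5 were labelled Ifnar1 -/-, so the controls carry a single copy of the gene for this type I interferon receptor subunit and none is wild type. The series text speaks of HPCs and the sample labels of AML. The sources used here state no age, no sorting and no promoter for NHD13. They also do not say whether each sample is a different mouse, and the p-values thus reflect the spread among these libraries, which may not be a spread among mice.

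Type I interferons bind the receptor formed by Ifnar1 and Ifnar2. Signals from the receptor pass through the kinases Jak1 and Tyk2, and a complex that contains Irf9 binds the interferon-stimulated response element in target promoters. Ifit proteins bind foreign RNA and restrain its translation. Isg15 is a ubiquitin-like protein that is attached to other proteins through Uba7, Ube2l6 and a ligase, which in mice is mainly Herc6, and Usp18 removes it again. Rsad2 (viperin) makes a chain-terminating nucleotide from CTP, Cmpk2 is a mitochondrial nucleotide kinase, and Isg20 is an RNA exonuclease.

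Stretches of 4 promoters are shown because they hold the core of the response element, that is, GAAA, any 2 bases and GAAA, read on both strands. They come from RefSeq (GRCm38.p6) and run from 170 to 41 bases upstream of the annotated start, 5′ to 3′ in the direction of the gene, with the matching letters in capitals.
Isg15: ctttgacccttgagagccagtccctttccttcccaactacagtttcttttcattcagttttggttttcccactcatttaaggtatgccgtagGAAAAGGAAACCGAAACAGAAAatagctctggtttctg
Ifit1: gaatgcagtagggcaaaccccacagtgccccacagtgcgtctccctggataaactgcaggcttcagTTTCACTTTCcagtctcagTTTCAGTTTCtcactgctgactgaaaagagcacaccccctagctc
Ifit3: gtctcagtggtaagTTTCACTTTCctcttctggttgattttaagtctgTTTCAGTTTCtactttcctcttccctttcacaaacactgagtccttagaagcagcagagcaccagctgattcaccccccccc
Rsad2: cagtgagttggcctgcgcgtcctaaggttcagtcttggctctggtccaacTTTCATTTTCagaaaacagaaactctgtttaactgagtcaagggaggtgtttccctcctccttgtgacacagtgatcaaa
The Isg15 stretch is chr4:156200859-156200988 on the minus strand, and its 3 matches overlap each other between 78 and 57 bases upstream. The Ifit1 stretch (chr19:34640719-34640848, plus strand) has matches 104 to 95 and 85 to 76 bases upstream. In Ifit3 (chr19:34583359-34583488, plus strand) the matches lie 156 to 147 and 122 to 113 bases upstream. Rsad2 (chr12:26456493-26456622, minus strand) has a single match, 120 to 111 bases upstream. Promoters of 8 members were in the table, and the element was in these 4 and not in the windows of Ifit2, Cmpk2, Herc6 and Isg20. The windows searched, for the members and for all promoters alike, were longer than the printed stretches and reached past the start. In windows of this length the element occurs in 3.44% of the 32851 mouse promoters, or, counted by gene, in 3.99% of 27025 genes. The core bound by the B-cell factor Ebf1, TCCC, any 2 bases and GGGA on either strand, was in 0 of the members' windows and in 0.904% of all promoters.

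Ifit2, Ifit3 and Ifit1 lie in this order on chromosome 19 (GRCm38), from 34550694 to 34650009. Rsad2 (26442746 to 26456452, minus strand) and Cmpk2 (26469204 to 26479837, plus strand) face away from each other on chromosome 12, with their starts 12.8 kb apart. Isg15 is on chromosome 4, Usp18 and Herc6 are on chromosome 6, and Isg20 is on chromosome 7.

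Library totals ran from 25583642 to 38728143 estimated counts. Levels are given in CPM (counts relative to the library total, adjusted by TMM factors). Ifnar1 transcript did not separate the labels, at 39.2 to 84.4 CPM in Ifnar1 +/- and 36.2 to 133 CPM in Ifnar1 -/- libraries, and the files do not show which part of the gene the allele removes. The libraries fell into separate sets by Ebf1, a transcription factor of early B cells. It stood at 0.0308 to 8.71 CPM in 6 libraries (Ifnar1 +/- 1, 2 and 6, and Ifnar1 -/- 1, 2 and 4) and at 530 to 744 CPM in the other 5 (Ifnar1 +/- 3, 4 and 5, and Ifnar1 -/- 3 and 5). All 10 markers of leukaemic progenitors were detected, with a summed level of 492 to 1646 CPM. Ifnar1 -/- library 2 stood apart with 29794 CPM of 10 neutrophil markers and 2921 CPM of 10 monocyte and macrophage markers, and Ifnar1 +/- library 6 with 88212 CPM of 10 erythroid markers. In bulk samples, fewer cells of a type and less RNA per cell cannot be told apart.

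**Figure D1:**
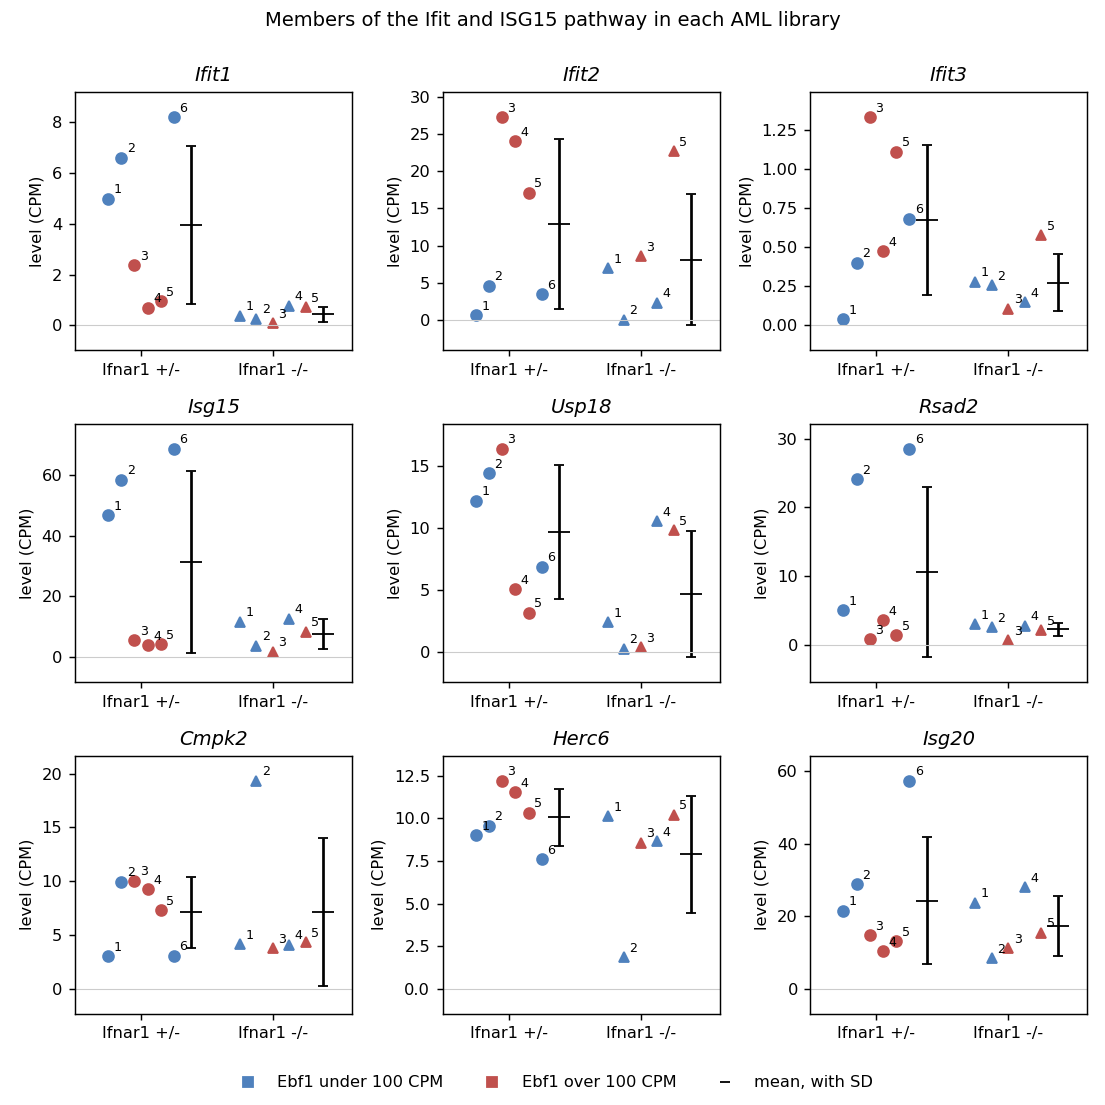
Level in CPM of each of the 9 genes in every library, numbered by replicate within each genotype, with the mean and SD beside each group. Colour marks Ebf1 under or over 100 CPM. Isg15 is at 46.7 CPM or more in 3 Ifnar1 +/- libraries and at 12.5 CPM or less in the other 8 libraries.

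Among the Ifit genes, Ifit1 and Ifit2 were high in different libraries. Ifit1, which binds RNA with an incompletely methylated cap, had 4.99, 6.60 and 8.20 CPM in Ifnar1 +/- libraries 1, 2 and 6. The Ifnar1 +/- libraries 3, 4 and 5 had 2.37, 0.690 and 0.940 CPM of Ifit1. Values of 0.370, 0.258, 0.0715, 0.773 and 0.702 CPM were found in Ifnar1 -/- libraries 1 to 5. Of the Ifnar1 +/- libraries, 5 exceeded every Ifnar1 -/- library, and the groups overlapped through Ifnar1 +/- library 4. The group levels of Ifit1 were 3.97 ± 3.11 CPM (SD, n = 6) and 0.435 ± 0.297 CPM (SD, n = 5), on 2.27 to 22 estimated counts in an Ifnar1 -/- library. Its log2 fold change for Ifnar1 -/- against Ifnar1 +/- was -3.17 (SE 0.83, unadjusted p = 0.00282, edgeR adjusted p = 0.9998), against -1.77 under limma voom.

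Ifit2, an RNA-binding relative also tied to cell death, showed another order. It had 27.2, 24.0 and 17.1 CPM in Ifnar1 +/- libraries 3, 4 and 5, and 8.58 and 22.6 CPM in Ifnar1 -/- libraries 3 and 5. These are the 5 libraries with high Ebf1, and each of them exceeded the other 6, where Ifit2 had 0.724, 4.64 and 3.53 CPM (Ifnar1 +/- libraries 1, 2 and 6) and 6.998, 0.103 and 2.36 CPM (Ifnar1 -/- libraries 1, 2 and 4). Such a separation of all 5 high-Ebf1 libraries above all 6 others held for 12.1% of the genes tested, and the reverse, which no member showed, for 9.0%. Between genotypes Ifit2 did not pass the test, with a log2 fold change of -0.66 (SE 1.08, edgeR adjusted p = 0.9998), which was -0.30 without Ifnar1 +/- library 3 and -1.51 without Ifnar1 -/- library 5.

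Ifit3, which in human cells binds and stabilises IFIT1, was the lowest member. Its level was 0.0402 to 1.33 CPM in Ifnar1 +/- libraries and 0.107 to 0.575 CPM in Ifnar1 -/- libraries, on 1 to 45.95 estimated counts. A near-identical neighbour, Ifit3b, had up to 9.83 counts, and reads could be split between the copies, so the Ifit3 values are uncertain. The log2 fold change of Ifit3 was -1.29 (SE 0.72, edgeR adjusted p = 0.9998). None of the 3 further Ifit paralogs in the table passed the filter on low counts. Among them Ifit1bl1 had 64, 72, 76 and 33 counts in Ifnar1 +/- libraries 3, 4 and 5 and Ifnar1 -/- library 5, all with high Ebf1. It had 2 counts in Ifnar1 -/- library 3, the remaining library with high Ebf1, and 0 to 8 counts in the 6 libraries with low Ebf1.

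Isg15 was the member with the highest level per kilobase of exon, at 27.1 ± 32.7 CPM per kb (SD, n = 11). On this scale it was followed by Isg20 (11.4 ± 7.49), Ifit2 (2.73 ± 2.57), Usp18 (2.66 ± 2.01), Cmpk2 (1.71 ± 1.18), Rsad2 (1.56 ± 2.26), Herc6 (0.975 ± 0.295), Ifit1 (0.889 ± 1.08) and Ifit3 (0.281 ± 0.237). Neighbours in this order differed by less than the larger of their SDs, except Isg20 and Ifit2. Isg15 had 46.7, 58.4 and 68.6 CPM in Ifnar1 +/- libraries 1, 2 and 6, against 5.54, 3.96 and 4.29 CPM in Ifnar1 +/- libraries 3, 4 and 5. In the Ifnar1 -/- libraries 1 to 5 Isg15 stood at 11.6, 3.66, 1.68, 12.5 and 8.40 CPM. The Ifnar1 +/- group thus held both the 3 highest values and values inside the Ifnar1 -/- range. Isg15 had a log2 fold change of -2.04 (SE 0.91, unadjusted p = 0.0470, edgeR adjusted p = 0.9998), and the sign turned under limma voom with quality weights (0.18).

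Usp18, which also blocks signalling at the receptor, was also high in libraries where Isg15 was low. In Ifnar1 +/- libraries 1 to 6 it had 12.2, 14.4, 16.4, 5.08, 3.20 and 6.90 CPM. In Ifnar1 -/- libraries 1 to 5 it had 2.44, 0.309, 0.429, 10.6 and 9.83 CPM, so that 3 of them lay below every Ifnar1 +/- library and the other 2 inside their range. The log2 fold change of Usp18 was -1.04 (SE 0.88, edgeR adjusted p = 0.9998), and ran from -1.57 to -0.72 when each library was left out. A non-coding gene on the other strand, Gm44148, overlaps its exons and had at most 11.2 counts.

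Herc6 was the steadiest member relative to its mean. It had 7.62 to 12.2 CPM in the 6 Ifnar1 +/- libraries. Ifnar1 -/- libraries 1, 3, 4 and 5 had 10.1, 8.58, 8.65 and 10.2 CPM, and Ifnar1 -/- library 2 had 1.85 CPM. The log2 fold change of Herc6 was -0.35 (SE 0.38, edgeR adjusted p = 0.9998) and -0.09 without that library. Its exons overlap those of Gm45193 on the same strand, which had up to 32.9 counts.

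The other ISG15 conjugation enzymes did not separate the genotypes. Of the 4 listed (Uba7, Ube2l6, Trim25 and Arih1) all were tested, 3 were lower in Ifnar1 -/- and none passed, with a median log2 fold change of -0.09. Ube2l6, the conjugating enzyme, ranged from 21.9 to 502 CPM over the 11 libraries, and was at 138, 199 and 502 CPM in the 3 Ifnar1 +/- libraries with high Isg15. Ifnar1 -/- libraries 1 and 4 also had 277 and 382 CPM of Ube2l6, while their Isg15 was 11.6 and 12.5 CPM. Uba7, the activating enzyme, was at 42.8 to 98.0 CPM in Ifnar1 +/- and 24.4 to 214 CPM in Ifnar1 -/- libraries.

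Rsad2 and Cmpk2, neighbours on chromosome 12, did not go together. Rsad2 had 5.03, 24.1 and 28.6 CPM in Ifnar1 +/- libraries 1, 2 and 6, and 0.827, 3.56 and 1.40 CPM in libraries 3, 4 and 5. In Ifnar1 -/- libraries 1 to 5 it had 3.02, 2.52, 0.679, 2.76 and 2.11 CPM. Of the Ifnar1 +/- libraries, 4 exceeded every Ifnar1 -/- library and 2 lay within their range. Rsad2 had a log2 fold change of -2.25 (SE 0.93, unadjusted p = 0.0340, edgeR adjusted p = 0.9998), against -0.23 under limma voom.

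Cmpk2 had 3.02, 9.94, 10.1, 9.26, 7.32 and 3.08 CPM in Ifnar1 +/- libraries 1 to 6. Its values in Ifnar1 -/- libraries 1 to 5 were 4.16, 19.4, 3.75, 4.08 and 4.31 CPM. Its highest level was thus in Ifnar1 -/- library 2, and its lowest levels were in Ifnar1 +/- libraries 1 and 6, where Rsad2 was above every Ifnar1 -/- library. Cmpk2 had a genotype difference of 0.0025 on the log2 scale (SE 0.55, edgeR adjusted p = 0.9998), or -0.80 without Ifnar1 -/- library 2. Over the 11 libraries the correlation of Cmpk2 with Rsad2 was -0.13 on the log2 CPM scale.

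Isg20 had 21.5, 28.8 and 57.4 CPM in Ifnar1 +/- libraries 1, 2 and 6 and 14.7, 10.3 and 13.1 CPM in libraries 3, 4 and 5. Ifnar1 -/- libraries 1 to 5 had 23.7, 8.39, 11.1, 27.9 and 15.5 CPM. The highest value, in Ifnar1 +/- library 6, came with the 88212 CPM of erythroid markers noted above, against 9025 CPM or less in each of the other libraries, and the part of those cells in Isg20 was not tested. Between genotypes Isg20 differed by -0.49 on the log2 scale (SE 0.49, edgeR adjusted p = 0.9998), or by -0.03 without that library.

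Across the members, 8 of 9 had a lower fitted value in Ifnar1 -/- AML, against 51.7% of all genes tested, and their median log2 fold change was -1.04, against -0.01 over all genes. Ifit1, Ifit2, Ifit3 and Usp18 met the filter on low counts through the Ifnar1 +/- libraries alone, but not through the Ifnar1 -/- libraries alone. Their lower values are thus not independent of that filter. None of the 9 passed the edgeR test at an adjusted p of 0.05, as did no gene in the table (0.0%), while DESeq2 called 3 genes, none of them a member. At an unadjusted p under 0.05 there were 3 members (Ifit1, Isg15 and Rsad2, all lower), against 1.99% of all genes in either direction and 0.771% in the lower direction. All 6 Ifnar1 +/- libraries were above all 5 Ifnar1 -/- libraries for 0 members and 0.0758% of genes, and the reverse held for 0 members and 0.0482% of genes.

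**Figure D2:**
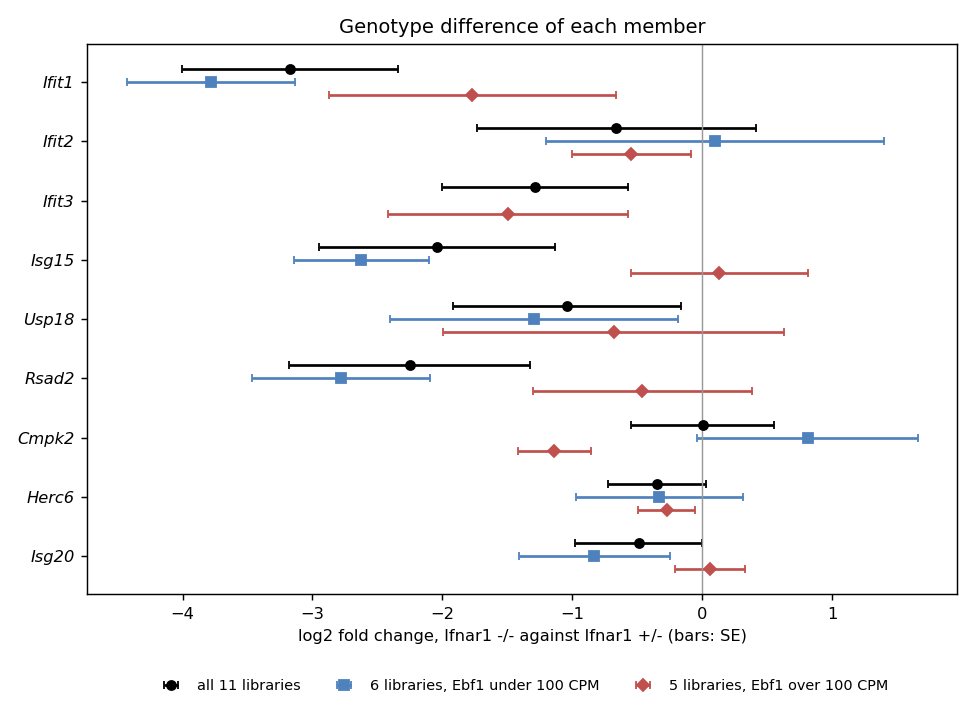
Log2 fold change of each gene, Ifnar1 -/- against Ifnar1 +/-, with its SE as a bar, in all 11 libraries and within the libraries with Ebf1 under or over 100 CPM. Ifit3 was not tested in the low-Ebf1 libraries. Isg15 is at -2.62 in the low-Ebf1 libraries and at 0.13 in the high-Ebf1 libraries.

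The genotype difference was next read at each level of Ebf1, in fits added after the data were seen. In the 6 libraries with low Ebf1, all 3 Ifnar1 +/- libraries exceeded all 3 Ifnar1 -/- libraries for Ifit1, Isg15 and Rsad2, that is, for 3 of 9 members and 3.93% of all genes. Isg15 was at 46.7 to 68.6 CPM against 3.66 to 12.5 CPM there. Its log2 fold change in these libraries was -2.62 (SE 0.52, unadjusted p = 0.00209), Ifit1 had -3.78 (SE 0.65, unadjusted p = 0.000895) and Rsad2 had -2.78 (SE 0.68, unadjusted p = 0.00605). These were the 3 of 8 members tested with an unadjusted p under 0.05, against 2.57% of genes, and no gene passed after adjustment by edgeR (0.0%).

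Markers of other cells differed between the same libraries. The 10 monocyte and macrophage markers summed to 612, 411 and 327 CPM in Ifnar1 +/- libraries 1, 2 and 6, and to 66.1, 2921 and 120 CPM in Ifnar1 -/- libraries 1, 2 and 4. Ifnar1 -/- library 2, with the highest sum, had 3.66 CPM of Isg15 and 2.52 CPM of Rsad2. The 10 erythroid markers summed to 9025, 4133 and 88212 CPM in the Ifnar1 +/- and to 7652, 3194 and 1955 CPM in the Ifnar1 -/- libraries of this set. All 10 markers of either list had counts in at least some library, and their part in the difference was not tested. Without Ifnar1 +/- library 6, the genotype difference over the remaining 10 libraries was -2.83 for Ifit1, -1.65 for Isg15 and -1.65 for Rsad2 on the log2 scale.

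In the 5 libraries with high Ebf1, Isg15 was at 3.96 to 5.54 CPM in the 3 Ifnar1 +/- libraries and at 1.68 and 8.40 CPM in the 2 Ifnar1 -/- libraries, with a log2 fold change of 0.13 (SE 0.68). Rsad2 had -0.46 (SE 0.84) and Ifit1 had -1.77 (SE 1.10) there. Cmpk2 and Herc6 were the members for which all 3 Ifnar1 +/- libraries exceeded both Ifnar1 -/- libraries, as did 8.8% of genes. Cmpk2 was at 7.32 to 10.1 CPM against 3.75 and 4.31 CPM, a log2 fold change of -1.14 (SE 0.28, unadjusted p = 0.00832), where 3.26% of genes had an unadjusted p under 0.05 and 0.0% passed by edgeR. Herc6 was at 10.3 to 12.2 CPM against 8.58 and 10.2 CPM.

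Whether the genotype difference depended on Ebf1 was tested over all 11 libraries with a product term, whose value is the change in the log2 genotype difference per doubling of Ebf1. Isg15 had the smallest p of the members, with 0.33 (SE 0.10, unadjusted p = 0.0102, edgeR adjusted p = 0.672), and Rsad2 had 0.29 (SE 0.12, unadjusted p = 0.0460, adjusted p = 0.770). For Cmpk2 the term was -0.22 (SE 0.10, unadjusted p = 0.0529, adjusted p = 0.790), and for Ifit1 it was 0.23 (SE 0.12, unadjusted p = 0.0909, adjusted p = 0.818). No member passed and no gene did (0.0%), and 2 of 9 members had an unadjusted p under 0.05, against 6.36% of all genes. The difference between the low-Ebf1 and the high-Ebf1 libraries in the effect of genotype was therefore not shown for any member.

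**Figure D3:**
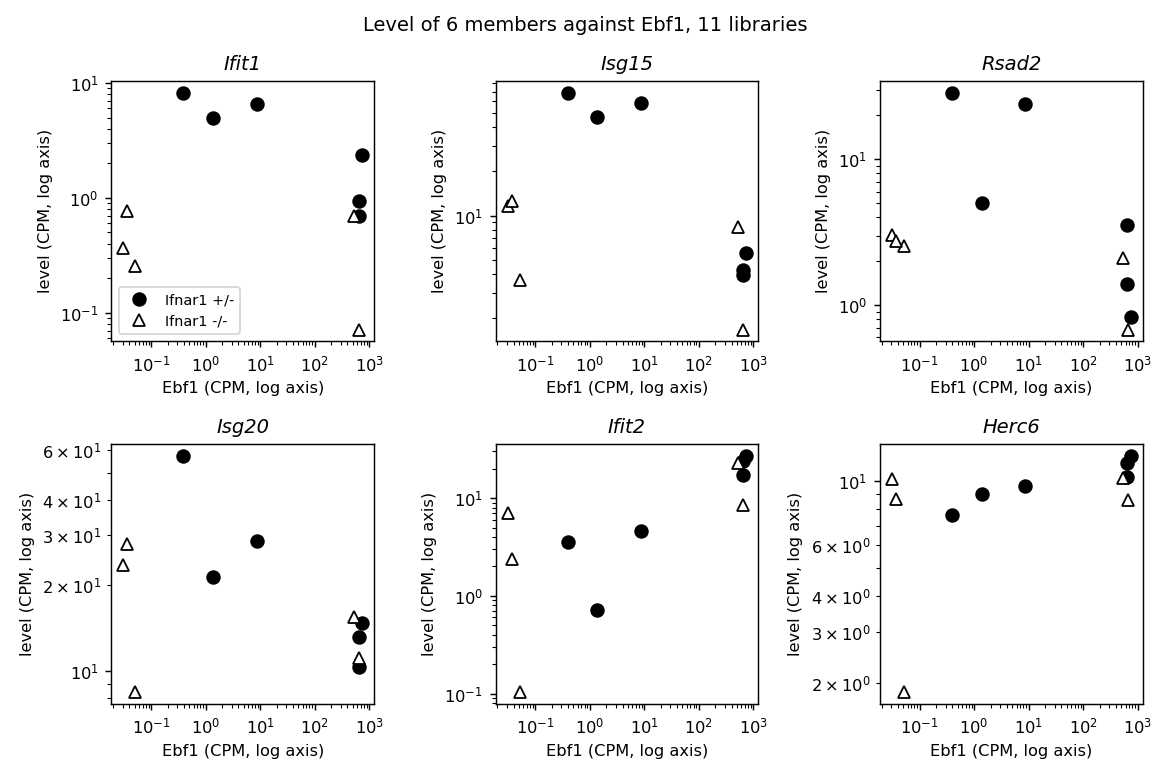
Level of 6 genes against the level of Ebf1, both in CPM on log axes, with 1 point per library. Ifit1, Isg15 and Rsad2 are highest in the 3 Ifnar1 +/- libraries with low Ebf1, whereas Ifit2 is higher in all 5 libraries with high Ebf1 than in the other 6.

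The change with Ebf1 itself was tested with genotype as a second term. Because the libraries form 2 sets of Ebf1 level, this slope mostly compares those sets. Ifit2 rose with Ebf1, by 0.24 on the log2 scale per doubling (SE 0.08, edgeR adjusted p = 0.0490), or 3.09 over the whole range. That range was 12.9 units of log2 CPM of Ebf1 with a prior count of 2, which shortens it where Ebf1 is near 0. A doubling of Ebf1 stands for 1 unit of this scale throughout. Ifit2 missed the threshold in 9 of the 11 fits that left out 1 library each, with an adjusted p between 0.0178 and 0.124. It was the single member that passed (1 of 9), against 25.1% of all genes, of which 12.7% had a positive and 12.3% a negative slope.

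The other members did not pass in the 11 libraries. Isg15 had a slope of -0.18 (SE 0.07, edgeR adjusted p = 0.0836), Rsad2 of -0.18 (SE 0.07, adjusted p = 0.0980), Isg20 of -0.10 (SE 0.04, adjusted p = 0.0675) and Ifit1 of -0.11 (SE 0.07, adjusted p = 0.236). Usp18, Cmpk2 and Herc6 had slopes of -0.0020, -0.01 and 0.04, with adjusted p-values of 0.989, 0.908 and 0.414. In the 5 libraries with high Ebf1, the 10 B-lineage markers summed to 5845 to 9225 CPM, against 12.2 to 125 CPM in the other 6, and their part in the rise of Ifit2 was not tested.

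Within the 6 Ifnar1 +/- libraries alone, a fit added after the data were seen, 4 of 8 members tested passed, against 15.8% of genes. Isg15 fell by 0.41 on the log2 scale per doubling of Ebf1 (SE 0.06, edgeR adjusted p = 0.0120), Isg20 by 0.17 (SE 0.04, adjusted p = 0.0280) and Ifit1 by 0.25 (SE 0.07, adjusted p = 0.0483), where 8.41% of genes passed with a negative slope. Ifit2 rose by 0.32 (SE 0.07, adjusted p = 0.0346), where 7.39% of genes passed with a positive slope. Rsad2 had -0.37 (SE 0.11, adjusted p = 0.0660). Marker sums of other cells differed between these libraries too. Monocyte and macrophage markers were at 612, 411 and 327 CPM in Ifnar1 +/- libraries 1, 2 and 6. In libraries 3, 4 and 5 they were at 16.6, 62.1 and 73.3 CPM. Erythroid markers were at 9025, 4133 and 88212 CPM in the former and 624, 1583 and 2026 CPM in the latter. The part of such cells in these slopes was not tested. Within the 5 Ifnar1 -/- libraries 5 members were tested, and none of them and no other gene (0.0%) passed, with Isg15 at -0.07 (SE 0.07) and Isg20 at -0.05 (SE 0.05). As no gene at all passed in these 5 libraries, that fit cannot show that a member lacks a slope. Within a genotype, the filter on low counts asked for a minimum level in every library. It left 11601 genes in Ifnar1 +/- and 11305 in Ifnar1 -/- libraries, without genes near 0 at either level of Ebf1. These shares are therefore not comparable with the 25.1% over all 11 libraries.

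**Figure D4:**
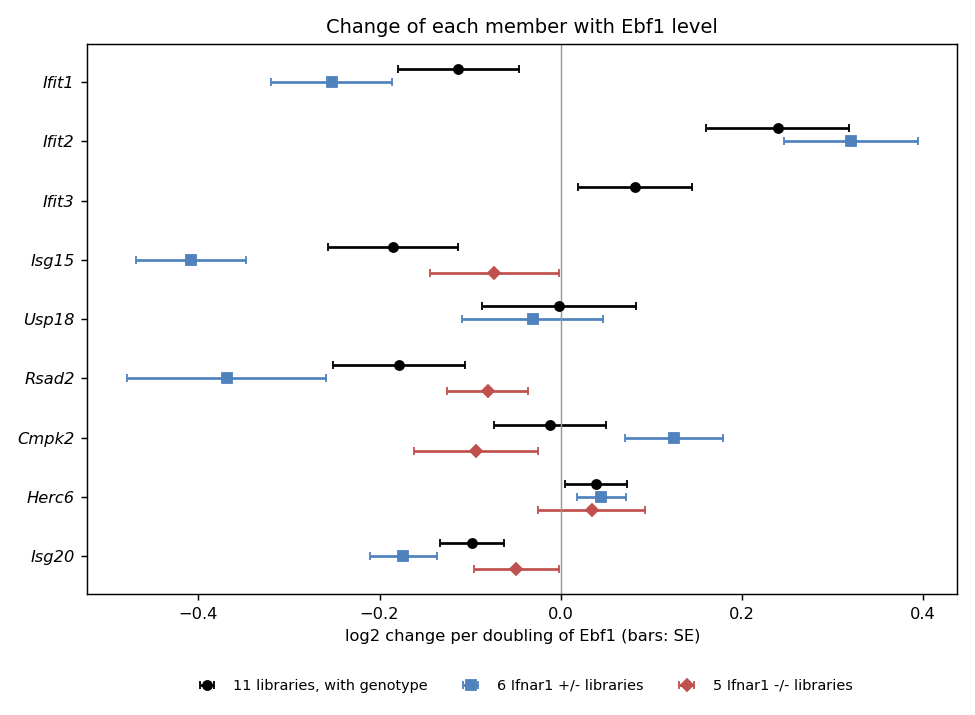
Log2 change of each gene per doubling of Ebf1, with its SE as a bar, in all 11 libraries with genotype as a term and within each genotype. Missing points are genes that did not pass the filter on low counts in that set. Isg15 is at -0.41 in Ifnar1 +/- and at -0.07 in Ifnar1 -/- libraries, while Ifit2 is at 0.32 in Ifnar1 +/- libraries.

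Over the 11 libraries, the members fell into patterns rather than a single one. On the log2 CPM scale Isg15 correlated with Ifit1 at 0.87, with Rsad2 at 0.87 and with Isg20 at 0.87. Ifit2 correlated with Herc6 at 0.83 and with Ifit3 at 0.60, but with Ifit1 at -0.03 and with Isg15 at -0.26. These values describe 11 libraries that share the split by Ebf1 and the cell makeup given above. Ifnar1 -/- library 2 held the lowest value of both Ifit2 (0.103 CPM) and Herc6 (1.85 CPM).

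The genes outside the list whose log2 CPM followed each member most closely, among 12126 searched, were for Isg15 Errfi1 (0.98), Rbm7 (0.95) and Il10 (0.94). For Ifit1 they were Dync1li2 (0.92), Prag1 (0.89) and Cnep1r1 (0.88). Ifit2 was followed by Lrrc49, Mtss1 and Zranb3 (0.98 each), and Ifit3 by Ranbp2 (0.94), Mynn (0.92) and Isca2 (0.89). Usp18 had Usp27x (0.96) and the interferon-inducible genes Slfn8 (0.95) and Irf9 (0.91) nearest to it. Herc6 had Arhgap12 and Trim30a (0.99 each), the latter also interferon-inducible, and Zcchc24 (0.98). For Rsad2 they were Bmp2k (0.96), Hccs (0.94) and Slc6a9 (0.93), for Cmpk2 Slc35e1 (0.97), Trim25 (0.92) and Entpd1 (0.92), and for Isg20 Bpgm (0.97), Blm (0.95) and Tnfrsf11a (0.95). Each value is a Pearson correlation over 11 libraries and carries no test. Herc6 was lowest (1.85 CPM) and Cmpk2 highest (19.4 CPM) in Ifnar1 -/- library 2, so their values can rest largely on that library. Trim25 was also highest there, at 66.3 CPM. Ifit2 (0.103 CPM), Usp18 (0.309 CPM) and Isg20 (8.39 CPM) had their lowest values in the same library. Ifit1, Isg15, Rsad2 and Isg20 were highest in Ifnar1 +/- library 6, which had 88212 CPM of erythroid markers. Single libraries can thus weigh on the correlations of these members as well. Arhgap12 and Trim30a had their lowest levels in Ifnar1 -/- library 2, at 0.412 and 1.03 CPM, and Zcchc24 in a low-Ebf1 Ifnar1 -/- library, at 0.0 CPM.

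Genes around the members were counted by lists. The 8 relatives by name or sequence (Cmpk1, Rsad1, Isg20l2, Aen and 4 other Herc genes) had 3 lower and 5 higher values in Ifnar1 -/- AML, a median of 0.26 and no call. Aen, a nuclease related to Isg20, averaged 86.4 ± 11.5 CPM (SD, n = 6) with Ifnar1 +/- against 63.8 ± 12.2 CPM (SD, n = 5) with Ifnar1 -/-. Its difference on the log2 scale was -0.44 (SE 0.18, unadjusted p = 0.0308, edgeR adjusted p = 0.9998). Of 11 receptor, kinase and transcription factor genes of the pathway, 5 were lower and 6 higher, with a median of 0.10 and no call. Irf7, which amplifies the interferon response, was at 17.9 ± 11.6 CPM (SD, n = 6) against 9.56 ± 6.97 CPM (SD, n = 5), a log2 fold change of -0.91 (SE 0.58, adjusted p = 0.9998).

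Of 35 other interferon-stimulated genes, 28 were tested. Among these, 24 were lower and 4 higher in Ifnar1 -/- AML, with a median of -0.50, against 51.7% lower and a median of -0.01 over all genes. There were 5 lower at an unadjusted p under 0.05, against 0.771% of all genes, and none passed. Rtp4, Oasl1 and Oas2 among them met the filter on low counts through the Ifnar1 +/- libraries alone, but not through the Ifnar1 -/- libraries alone. With Ebf1, 6 of the 28 rose and 1 fell, where 12.7% and 12.3% of all genes did. Only the count in both directions together is near the share of all genes (25.1%). The calls among the 28 were mostly rises, and this skew was not tested. Rtp4 rose by 0.21 (SE 0.06, edgeR adjusted p = 0.0223), Oasl1 by 0.22 (SE 0.07, adjusted p = 0.0467), Oas2 by 0.23 (SE 0.06, adjusted p = 0.0230) and Ifi27 by 0.14 (SE 0.04, adjusted p = 0.0207) on the log2 scale per doubling. Of the 4 ISG15 conjugation enzymes, Ube2l6 fell by 0.18 per doubling (SE 0.06, adjusted p = 0.0382).

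Transcripts of the interferons themselves were at or near 0. Of 20 interferon genes none passed the filter on low counts, and 16 had 0 counts in every library, where 3 counts correspond to 0.0723 to 0.155 CPM. Counts occurred for Ifna13, Ifnab and Ifnk, at most 2 in a library. Ifng, the type II interferon, had at most 18 counts in an Ifnar1 +/- and 2 in an Ifnar1 -/- library. Of the 10 markers listed for plasmacytoid dendritic cells, the main producers of type I interferon, Siglech and Klk1 had 0 counts in all libraries and 3 to 7 were above 1 CPM in a library. The list summed to 185 to 418 CPM in the low-Ebf1 and to 464 to 799 CPM in the high-Ebf1 libraries. The highest of these markers were Tcf4 and Irf8. Tcf4 was at 160 to 248 CPM in the high-Ebf1 libraries and 147 to 338 CPM in the others. Irf8 was at 154 to 262 CPM in the high-Ebf1 libraries and 0.662 to 7.36 CPM in the others. Whether such cells were present, and their part in the members' values, was not tested.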

How the data were processed

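Bulk RNA sequencing covered 11 AML libraries. The values deposited by the authors are estimated counts per gene with decimals. Per the submitters' processing notes bcl2fastq and DRAGEN were used, with roles and versions not given. Neither genome build nor strand setting is stated in the sources used here. The labels' protocols name a Qiagen kit for extraction and a Clontech kit for the libraries. Repeated rows, which were identical copies, were dropped (287 of 55774). Symbols were matched by Ensembl identifier for 55141 genes. Positions and exon lengths are from GENCODE on GRCm38.

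Counts were rounded and fitted with edgeR 4.0.16 in R 4.3.3 (filterByExpr by genotype, TMM factors, quasi-likelihood F-test with robust=TRUE, two-sided). P-values were adjusted by Benjamini-Hochberg over all 14521 genes, with a threshold of 0.05. SE is the absolute log2 value divided by the square root of F. The genotype fit had genotype alone, the Ebf1 fit added log2 CPM of Ebf1 (prior count of 2, 14520 genes without Ebf1), and the third fit added their product. The edgeR steps were run on simulated counts with known changes. The simulated spread was below the common spread of these data as fitted with genotype alone. The simulation thus does not show what could be detected here. The limit of 3 counts covers counting error only.

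The members, the gene lists and the tests were chosen with earlier results of these data known. Named genes are the members, up to 4 genes of a list with the smallest unadjusted p for genotype, the 2 highest markers of a cell type and the 3 genes most correlated with a member. Ifit1bl1, the ligands with counts, Siglech, Klk1, the overlapping genes and Ifnar1 fall outside that rule. Alternatives were DESeq2 1.42.0, limma 3.58.1 (voom with quality weights), other factors and filters, robust=FALSE, a threshold of 0.1 for genotype, leaving out each library, a replicate block, an Ebf1 covariate and a slope without genotype. Fits within a genotype or within a set of Ebf1 level, and a threshold of 0.1 for the Ebf1 slope, were added after seeing the data. For fits within a genotype, filterByExpr took the libraries as a single group.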

Additional observations from a re-analysis of the deposited data

Results flagged for a closer look

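Ifnar1 -/- library 2 stood apart from the other 4 libraries of its group for 2 of the 9 genes. Cmpk2 was at 19.36 CPM there, against 3.75 to 4.31 CPM in the others, a gap of 0.964 of the group's whole range. Herc6 was at 1.854 CPM, against 8.58 to 10.2 CPM, a gap of 0.804 of the range. Of 18 groups examined, 2 met the limit for an outlying sample, which chance alone meets in about 1 group in 20. The same library had the lowest Ifit2 (0.103 CPM), Usp18 (0.309 CPM) and Isg20 (8.39 CPM) of all 11 libraries. It also had the highest sums of neutrophil markers (29794 CPM) and of monocyte and macrophage markers (2921 CPM), and their part in these values was not tested.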

How the results depend on the processing

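No member passed for genotype under any alternative run, and the smallest adjusted p was that of Ifit1 under DESeq2 (0.0854), which called 3 other genes. Ifit1, Ifit3, Usp18, Rsad2 and Herc6 kept a lower fitted value in Ifnar1 -/- AML in every alternative that tested them, though limma voom brought Ifit1 to -1.77 and Rsad2 to -0.23. Ifit2 turned to 0.34 with the Ebf1 covariate and to 0.10 in the low-Ebf1 libraries. Cmpk2 turned to -0.078 with the Ebf1 covariate, -1.14 in the high-Ebf1 libraries, -0.82 under limma voom, -0.049 without a filter and -0.042 with upper-quartile factors, and ran from -0.80 to 0.15 when each library was left out. Isg15 turned to 0.13 and Isg20 to 0.059 in the high-Ebf1 libraries, and to 0.18 and 0.34 under limma voom. The cause was not tested.

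With a replicate block, Ifit1 had -2.74, Usp18 -2.09, Isg15 -1.03, Rsad2 -0.74 and Cmpk2 -0.40, and 0 genes passed. Ifnar1 +/- library 6 has no partner in that fit. Same-numbered libraries deviated from their group means with correlations of 0.52, 0.24, 0.62, -0.59 and 0.62 over 2000 genes, and only replicate 2 correlated best with its own number, so the numbers were not taken as pairs.

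The Ebf1 slope passed in 1833 genes and 4 members within Ifnar1 +/- libraries and in 0 genes and 0 members within Ifnar1 -/- libraries, against 3639 genes and 1 member in all 11. Because of the stricter filter within a genotype, 11601 and 11305 genes were tested there, against 14520 in all 11 libraries. The members that passed numbered 2 with the filter of 5 CPM (Ifit2 and Isg20) and 0 without a filter. At an adjusted p under 0.1, a threshold added for the slope after seeing the data, 5109 genes and 4 members passed, and Isg15 (-0.18), Rsad2 (-0.18) and Isg20 (-0.097) joined Ifit2. Leaving out each library gave 2060 to 4536 genes and 0 to 3 members, the 3 being Ifit2, Isg15 and Isg20 without Ifnar1 -/- library 2, and Ifit1, Isg15 and Rsad2 without Ifnar1 -/- library 5. Left-out slopes ran from -0.048 to 0.052 for Cmpk2 and from -0.13 to 0.072 for Usp18. Cmpk2 had 0.125 within Ifnar1 +/- libraries, and Usp18 had 0.023 without the genotype term. For the product of genotype and Ebf1, leaving out each library gave 0 to 1 genes, -0.24 to 0.18 for Usp18 and -0.045 to 0.019 for Herc6. At levels of a few counts, as for Ifit3 and for Ifit1 in Ifnar1 -/- libraries, depth limits what could be seen.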

Other observations

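Ifnar1 transcript, which did not separate the genotypes, rose with Ebf1 by 0.09 on the log2 scale per doubling (SE 0.02, edgeR adjusted p = 0.00823). Il10, an anti-inflammatory cytokine whose level followed Isg15, had a slope of -0.49 per doubling (SE 0.13, edgeR adjusted p = 0.0245). Its genotype difference did not pass, with 5.75 ± 6.81 CPM (SD, n = 6) in the Ifnar1 +/- libraries against 0.979 ± 1.47 CPM (SD, n = 5) in the Ifnar1 -/- libraries, and its part in the level of any member was not tested.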
